A study of Mus musculus with 7 samples.

Results

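Enzymes that make NADPH, others of the pentose phosphate pathway and the quinone reductase Nqo1 were followed in mouse embryonic fibroblasts (MEFs) under 6 kinds of stress. The group holds 9 genes, chosen by symbol from the 49382 genes in the expression table. G6pdx, Pgls and Pgd encode the oxidative branch of the pentose phosphate pathway, Tkt and Taldo1 its non-oxidative branch, and Me1, Idh1 and Idh2 the malic enzyme and isocitrate dehydrogenases that use NADP. The 9 genes were all among the 12909 genes that averaged 2 TPM or more across libraries and were kept. TPM is the share of a library that belongs to a gene, per unit of transcript length, scaled to a total of 1000000.

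The RNA-seq data comprised 7 libraries, 1 per group. The control was untreated MEFs, and 3-hour treatments were 10 μM sodium arsenite, called oxidative stress, and 100 mM NaCl, called osmotic stress. The 10-hour treatments were medium without glucose (glucose depletion), medium without glutamine (glutamine depletion), 1 μM thapsigargin (ER stress) and 0.1% oxygen (hypoxia). One control library served both durations, and its own culture time is not given in the sources used here. MEFs are a mixed primary culture from mid-gestation embryos whose head and fetal liver were removed, and all 7 libraries came from wild-type cells. With 1 library per group, there was no replicate spread to hold a difference against, and no p-value or error is given. The values describe these libraries. TPM holds no number of reads, so their sequencing depth is unknown.

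NADPH is the electron donor for fatty acid and sterol synthesis and for the reductases that recycle glutathione and thioredoxin. Cells make it from glucose 6-phosphate in the oxidative pentose phosphate branch, from malate through malic enzyme, and from isocitrate through Idh1 in the cytosol and peroxisomes and Idh2 in mitochondria. Nqo1 consumes NAD(P)H to reduce quinones and is a classical target of NRF2, the transcription factor that responds to oxidants. Several other genes of the group, among them G6pdx, Pgd, Tkt, Taldo1 and Me1, are also known as NRF2 targets.

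The treatments left marks in genes known to respond to them. In oxidative stress Hmox1 rose from 266 to 6055 TPM. In ER stress Hspa5, the main chaperone of the ER, rose from 1165 to 12611 TPM. In hypoxia Bnip3, a target of hypoxia-inducible factor, rose from 26.7 to 797 TPM, and in osmotic stress Akr1b3, the aldose reductase that makes sorbitol, rose from 90.5 to 575 TPM. In glucose depletion Txnip, which responds to glucose, fell from 70.7 to 16.1 TPM. Txnip was lower still in osmotic stress, at 7.22 TPM, so its fall is not particular to glucose depletion. Arrdc4, also responsive to glucose, fell from 7.38 to 1.97 TPM in glucose depletion and was at 5.54 TPM in osmotic stress. In glutamine depletion Atf3 rose from 3.02 to 21.3 TPM and Chac1 from 26.2 to 86.8 TPM. Asns, the asparagine synthetase, did not pass 2-fold, at 168 TPM against 141 TPM in control cells. Atf3 and Chac1 are not particular to this treatment. They were at 88.3 and 69.7 TPM in oxidative stress and at 112 and 224 TPM in ER stress. The study's methods describe MEFs cleared of macrophages by sorting, while the labels of these libraries mention no sort. The 8 fibroblast markers summed to between 10229 and 12781 TPM in the 6 libraries other than ER stress, and to 6160 TPM in ER stress. Macrophage markers summed to between 6.76 and 13.7 TPM, of which Cd68 gave most, and those of endothelial cells to at most 5.37 TPM. Epithelial, erythroid and adipocyte markers each summed to under 1 TPM, with Hbb-bs and Cidec at 0 in all 7 libraries.

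The 9 genes were abundant and varied little. In the control they lay between 57.6 TPM for G6pdx and 140 TPM for Pgd. Changes were taken as the difference of log2(TPM + 1) from the control, a scale that understates changes of low genes, and a gene was said to have risen or fallen where it passed 2-fold. Of the 54 changes, for 9 genes in 6 conditions, 51 were within 0.5 log2 units of the control. Just past that width were Idh2 in oxidative stress, at -0.50, and Nqo1 in hypoxia, at -0.60. The change of Idh1 in ER stress, -1.28, was the only 1 past 2-fold. Values below the control outnumbered those above it, with 40 against 14. The median change of all kept genes was itself below 0 in every condition but ER stress, where it was 0. It was lowest in oxidative stress, at -0.16, and osmotic stress, at -0.12. When each condition was centred on that median, 8 of the 54 changes, all small, switched sides. After this centring, 8 of the 9 genes lay above 0 in oxidative stress and 7 in osmotic stress. Among the 10-hour conditions, between 6 and 9 of them lay below 0.

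**Figure D1:**
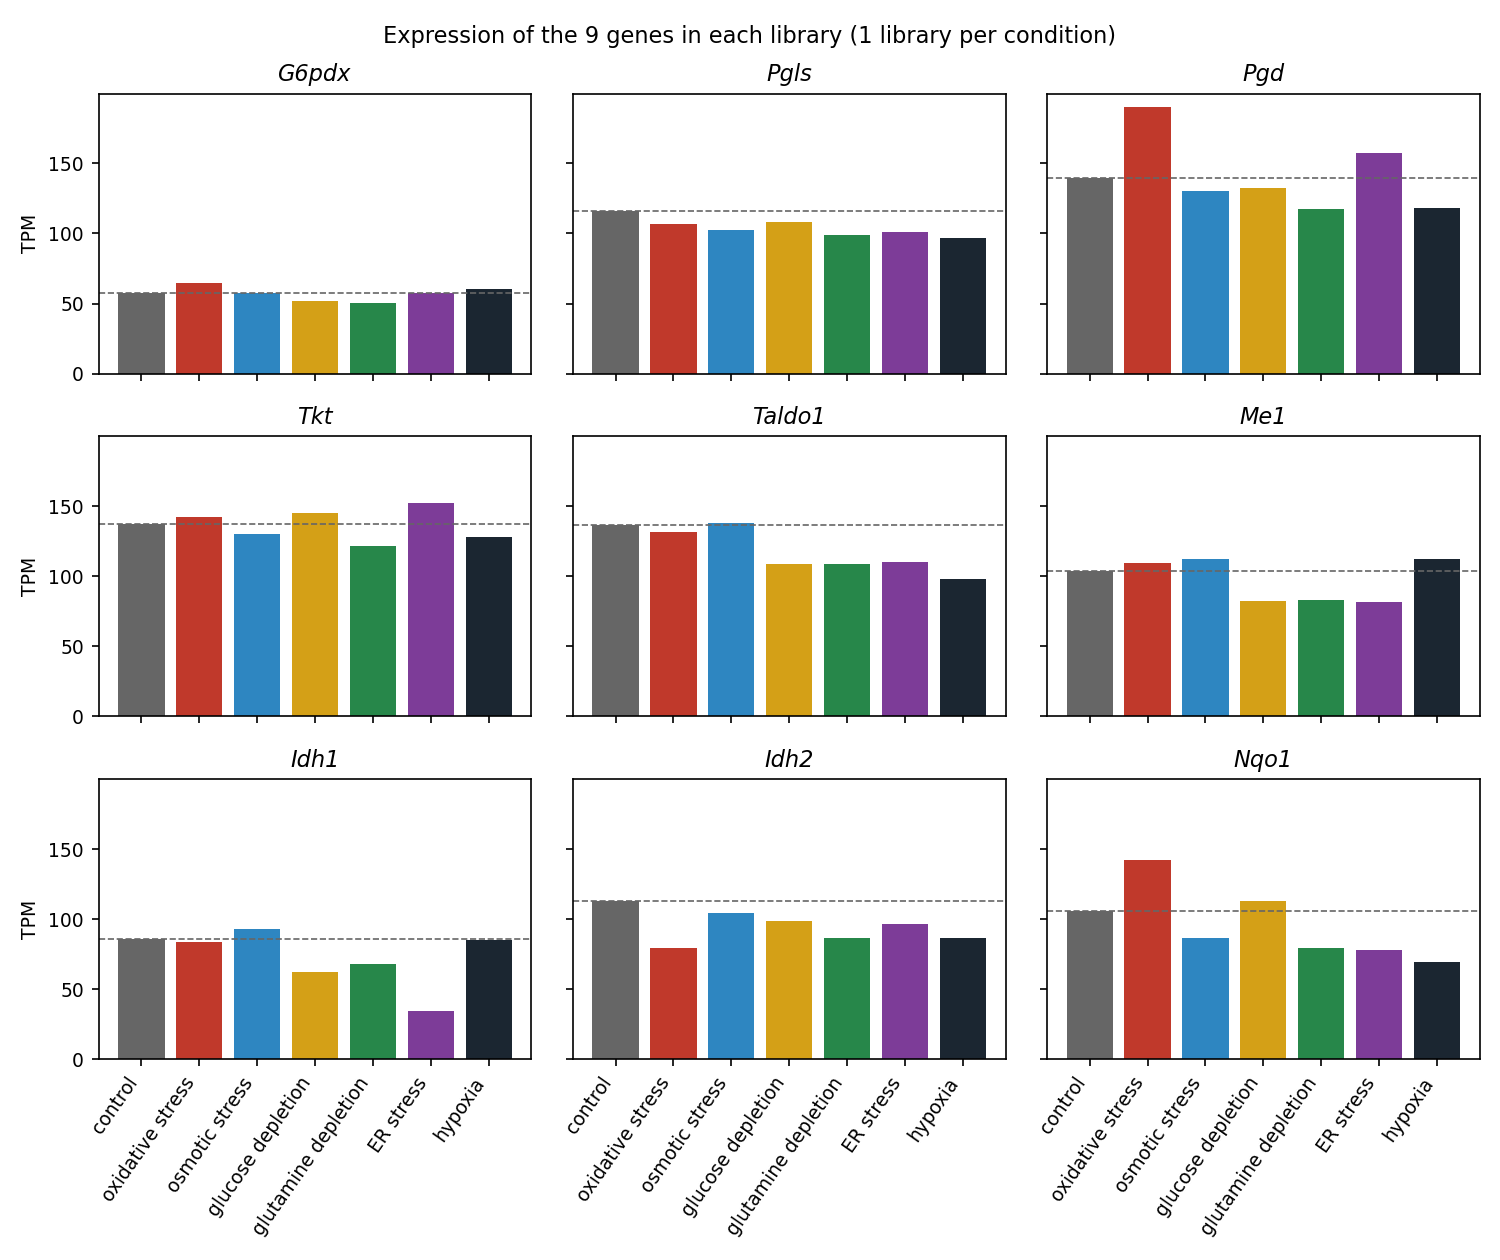
Expression of the 9 genes in TPM (vertical axis, from 0) in the control and the 6 stress libraries (bars, 1 library each), with a dashed line at the control level. Idh1 was at 34.7 TPM in ER stress against 85.6 TPM in the control, and Pgd and Nqo1 were at their highest in oxidative stress.

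These counts stand beside a background that differed between conditions. No member rose or fell in oxidative stress, where 3.94% of all kept genes rose and 4.85% fell. None did so in osmotic stress, where 3.08% rose and 8.76% fell. None did so in glucose depletion, where 1.83% of kept genes rose and 2.41% fell, or in glutamine depletion, where 3.21% rose and 3.21% fell. In hypoxia, too, no member passed 2-fold in either direction, against 3.57% of kept genes that rose and 2.64% that fell. In ER stress 1 of the 9 fell and none rose, against 11.0% of kept genes that fell and 8.60% that rose. With 9 members, these counts were near the background, and nothing particular to the group is read from them.

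The sizes of the changes were also compared with those of all kept genes. In ER stress the median absolute change of the 9 genes was 0.22 log2 units, against 0.45 for all kept genes. In oxidative stress it was 0.12 against 0.29, and in osmotic stress 0.11 against 0.30. In glucose depletion (0.15 against 0.16) and hypoxia (0.24 against 0.23) it was close to that of all kept genes, and in glutamine depletion it was 0.32 against 0.25. The kept genes include genes of far lower expression than these 9, and the part of expression level in this contrast was not tested.

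**Figure D2:**
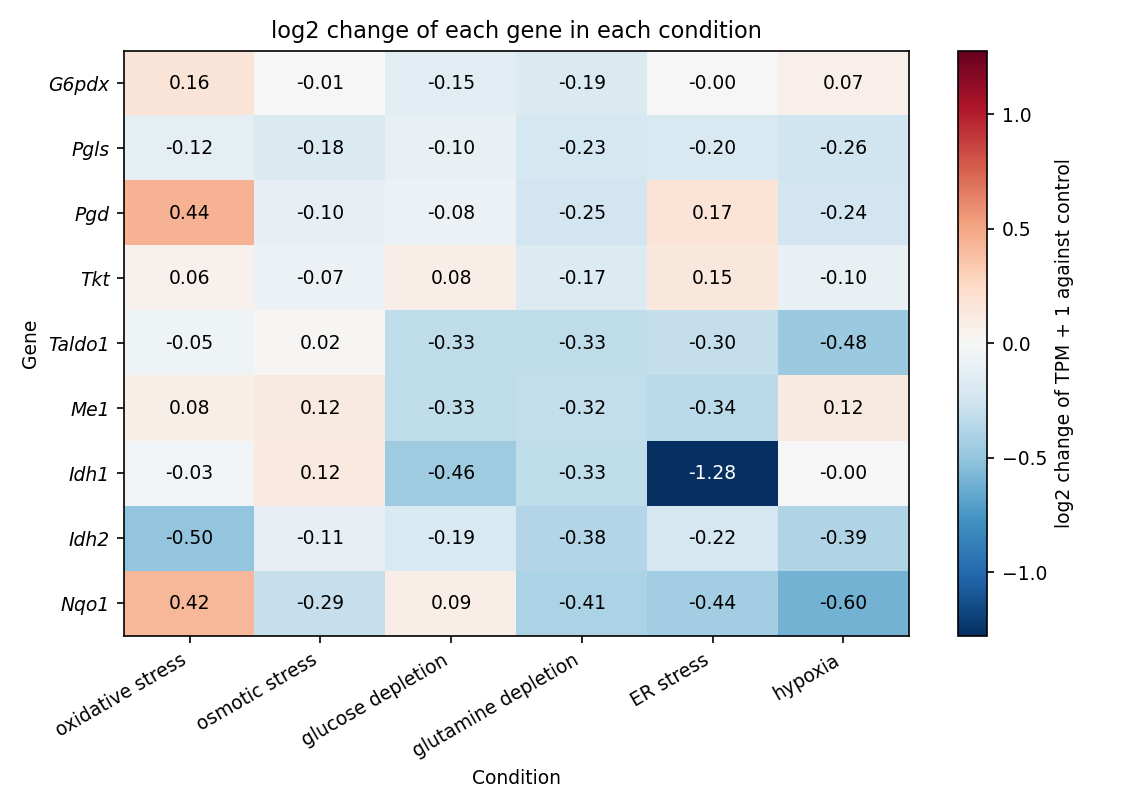
Difference of log2(TPM + 1) from the control for each of the 9 genes (rows) in each of the 6 conditions (columns), with the value printed in each cell and coloured from blue (below the control) to red (above it). The cell of Idh1 in ER stress, at -1.28, stands out, and the glutamine depletion column lies below 0 for all 9 genes.

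Idh1, the NADP-dependent isocitrate dehydrogenase of the cytosol and peroxisomes (ENSMUSG00000025950, chr1:65158616-65186500, minus strand of GRCm38), varied most. It was at 85.6 TPM in control cells, 83.7 under oxidative stress, 93.3 under osmotic stress, 62.2 under glucose depletion, 68.0 under glutamine depletion, 34.7 under ER stress and 85.4 under hypoxia. Its level stayed near the control under oxidative stress, osmotic stress and hypoxia, was lower under both nutrient depletions, and was lowest under ER stress, a range of 2.69 times. The fall in ER stress, by 1.28 on the log2 scale, ranked 906 from the largest fall among the 12909 kept genes. In glucose depletion the change was -0.46 and in glutamine depletion -0.33.

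Idh1 was also low in ER stress against libraries of equal duration, where no control is needed. The ER stress value minus the hypoxia value was -1.27 log2 units for Idh1, the only member past 2-fold in that comparison, in which 11.5% of kept genes were lower and 10.9% were higher by as much. Idh1 was higher than in ER stress by 0.82 in glucose depletion and by 0.95 in glutamine depletion. Fibroblast markers were also lower in ER stress, since all 8 were below the control and 2 of them fell, Col3a1 from 1479 to 352 TPM and Pdgfrb from 129 to 57.6 TPM. Whether the culture as a whole, or its make-up, had a part in the lower Idh1 was not tested. In bulk RNA, fewer cells of a type and less RNA per cell cannot be told apart.

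Idh2, the mitochondrial counterpart of Idh1 (ENSMUSG00000030541, chr7:80094846-80115392, minus strand), did not move with it. It was at 113 TPM in control cells, 79.3 under oxidative stress, 105 under osmotic stress, 98.6 under glucose depletion, 86.8 under glutamine depletion, 96.5 under ER stress and 86.2 under hypoxia. Idh2 was highest in the control and lowest in oxidative stress, with changes between -0.50 and -0.11, none past 2-fold. The ratio of Idh2 to Idh1 was 1.32 in the control and between 0.948 and 1.59 in the other libraries except ER stress, where it was 2.78. The 3 subunit genes of the NAD-dependent enzyme of the TCA cycle showed no fall in ER stress either. There Idh3a was at 91.5 TPM against 90.9 in the control, Idh3b at 101 against 97.3, and Idh3g at 92.2 against 68.1.

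The start regions of both NADP-dependent isocitrate dehydrogenase genes are shown because the genes parted in ER stress. Each line is the stretch of the 250 bases before the RefSeq start (GRCm38.p6, minus strand, written 5′ to 3′) that lies outside annotated exons, at chr1:65186501-65186682 for Idh1 and chr7:80115393-80115600 for Idh2. Capitals mark CCACG or its reverse complement, the conserved part of the ER stress response element.
Idh1: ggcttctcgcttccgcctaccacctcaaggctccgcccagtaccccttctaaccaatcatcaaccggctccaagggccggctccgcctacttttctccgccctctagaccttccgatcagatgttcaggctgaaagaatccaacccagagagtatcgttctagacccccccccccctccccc
Idh2: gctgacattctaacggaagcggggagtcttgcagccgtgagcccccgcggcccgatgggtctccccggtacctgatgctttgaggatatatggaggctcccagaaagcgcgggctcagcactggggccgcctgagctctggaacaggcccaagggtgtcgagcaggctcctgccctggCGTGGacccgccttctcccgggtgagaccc

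That Idh1 window held none of the 5 motifs searched, while Idh2 held 1 match of CCACG, between 72 and 68 bases before its start. CCACG was found in 28.3% of the 32851 promoter windows of this length, so a match is common. The window before a second RefSeq start of Idh1, chr1:65179143-65179392, held 2 matches. The first Idh1 window also overlaps the first exons of Pikfyve, a lipid kinase gene transcribed from the other strand. Pikfyve was looked up for this position. It was at 9.43 TPM in control cells and 13.5 TPM under ER stress, a change of 0.47, so the neighbour on the shared start region did not fall. These matches are descriptions of letters, and their part in the expression values was not tested.

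Nqo1 (ENSMUSG00000003849, chr8:107388225-107403206, minus strand) had the next widest range, 2.06 times, and a different order of libraries. It was at 106 TPM in control cells, 142 under oxidative stress, 86.4 under osmotic stress, 113 under glucose depletion, 79.5 under glutamine depletion, 77.8 under ER stress and 69.2 under hypoxia. The changes were 0.42, -0.29, 0.09, -0.41, -0.44 and -0.60, in the same order of conditions, and none passed 2-fold. In hypoxia Nqo1 was the only 1 of the 9 genes lower by more than 1.5-fold, against 8.10% of kept genes. Between the 2 libraries of 3 hours, Nqo1 was higher in oxidative than in osmotic stress by 0.71, the largest such difference among the 9 genes. Nqo2, its relative that uses another electron donor, was at 25.0 TPM in control cells and lowest under ER stress, at 12.4 TPM, a change of -0.96.

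Pgd, the 6-phosphogluconate dehydrogenase that carries out the second NADPH-forming step of the pathway (ENSMUSG00000028961, chr4:149149991-149166771, minus strand), shared its highest library with Nqo1. It was at 140 TPM in control cells, 190 under oxidative stress, 130 under osmotic stress, 133 under glucose depletion, 118 under glutamine depletion, 158 under ER stress and 118 under hypoxia. Its change of 0.44 in oxidative stress was the highest of the 54, below the 2-fold line. The median of all kept genes was at -0.16 in oxidative stress and at -0.12 in osmotic stress. Relative to that median, Pgd stood at 0.60 and Nqo1 at 0.58 in oxidative stress.

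The other enzymes of the oxidative branch stayed nearer to the control. G6pdx, which encodes glucose-6-phosphate dehydrogenase, the entry enzyme of the pathway (ENSMUSG00000031400, chrX:74409483-74429194, minus strand), was at 57.6 TPM in control cells, 64.6 under oxidative stress, 57.3 under osmotic stress, 51.8 under glucose depletion, 50.5 under glutamine depletion, 57.4 under ER stress and 60.5 under hypoxia. Pgls, the lactonase between the dehydrogenase steps (ENSMUSG00000031807, chr8:71592176-71601092, plus strand), was at 116 TPM in control cells, 106 under oxidative stress, 102 under osmotic stress, 108 under glucose depletion, 98.9 under glutamine depletion, 101 under ER stress and 96.9 under hypoxia. Across the 7 libraries G6pdx varied by 1.28 times and Pgls by 1.20 times, the narrowest range of the 9 genes. Pgls was highest in the control, and G6pdx and Pgd were highest in oxidative stress. The 3 genes therefore did not shift as a block, and the ratio of Pgd to Pgls, 1.20 in control cells, reached 1.79 under oxidative stress and 1.56 under ER stress.

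The start regions of Pgd and Nqo1, the genes furthest above the control in oxidative stress, are given in the same way. They lie at chr4:149166772-149166955 for Pgd and chr8:107403207-107403455 for Nqo1, both on the minus strand of GRCm38.p6, and neither printed stretch holds any of the 5 motifs, so no base is in capitals.
Pgd: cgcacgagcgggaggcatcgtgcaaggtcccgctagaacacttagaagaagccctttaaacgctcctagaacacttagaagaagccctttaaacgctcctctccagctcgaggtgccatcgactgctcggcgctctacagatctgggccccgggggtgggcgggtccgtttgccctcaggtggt
Nqo1: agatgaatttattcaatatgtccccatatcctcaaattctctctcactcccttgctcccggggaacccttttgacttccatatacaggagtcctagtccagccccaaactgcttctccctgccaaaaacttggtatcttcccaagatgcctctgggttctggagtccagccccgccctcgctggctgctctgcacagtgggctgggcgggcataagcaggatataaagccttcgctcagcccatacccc

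The antioxidant response element core, TGACNNNGC on either strand, was found in 1 of the 9 genes, G6pdx. The match there, GCTCAGTCA, lies between 57 and 49 bases before the RefSeq start, within a first exon of the gene in GENCODE. That core was present in 10.2% of all promoter windows. The AP-1 letters TGANTCA (6.75% of windows), the unfolded protein response core TGACGTG (1.65%) and the sterol element letters TCACNCCAC (1.05%) were in none of the 12 windows of the 9 genes. CCACG was in windows of Idh1, Idh2, Pgd, Taldo1, Pgls and Tkt. In Pgd its match lies between 39 and 35 bases before the start, in the exon part that is not printed. Bases further upstream were not searched, and the absence of a match says only that these letters are not in the window.

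In the non-oxidative branch, which links sugar phosphates back to glycolysis, the pair of genes differed. Tkt, the transketolase (ENSMUSG00000021957, chr14:30548359-30574720, plus strand), was at 137 TPM in control cells, 143 under oxidative stress, 130 under osmotic stress, 145 under glucose depletion, 121 under glutamine depletion, 152 under ER stress and 128 under hypoxia. Taldo1, the transaldolase (ENSMUSG00000025503, chr7:141392199-141402968, plus strand), was at 136 TPM in control cells, 131 under oxidative stress, 138 under osmotic stress, 108 under glucose depletion, 109 under glutamine depletion, 110 under ER stress and 97.8 under hypoxia. Taldo1 was near the control in both 3-hour libraries and lower in the 10-hour libraries, at changes of -0.33, -0.33, -0.30 and -0.48. No treatment was given at both durations, so duration and treatment cannot be told apart. Tkt lay on both sides of the control in either duration.

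Me1, the cytosolic malic enzyme (ENSMUSG00000032418, chr9:86581371-86695953, minus strand), was at 104 TPM in control cells, 110 under oxidative stress, 113 under osmotic stress, 82.7 under glucose depletion, 83.1 under glutamine depletion, 81.9 under ER stress and 113 under hypoxia. Its values formed a higher set of 4 libraries and a lower set of 3, with changes of -0.33, -0.32 and -0.34 in the lower set. The split of reads between Me1 and near-identical copies is uncertain. Of the stretches of 31 bases in its transcripts, 30.0% also occur in other genes, in 2 pseudogenes. One of these, Gm7049, was listed at 0 in all libraries, while Gm7329, a transcript of 210 bases, was at 57.3 TPM in control cells, 26.4 TPM in glucose depletion and 133 TPM in hypoxia. The shared part was 12.6% for G6pdx, all of it with G6pd2, 14.0% for Taldo1, mostly with Gm17823, and 19.5% for Pgls, all of it with Fam129c. Those partners were at most at 0.085, 0.224 and 3.97 TPM. It was 1.54% for Pgd, 0.188% for Tkt, and 0 for Idh1, Idh2 and Nqo1, so the genes that varied most, Idh1 and Nqo1, had no such partner.

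By summed TPM, the 9 genes together held 995 TPM in the control. The sum was 1050 TPM in oxidative stress, 955 in osmotic stress, 903 in glucose depletion, 870 in ER stress, 855 in hypoxia and 814 in glutamine depletion. The lowest sum was that of glutamine depletion, where the 9 genes were all below the control, with changes between -0.17 and -0.41 and a median of -0.32, against -0.09 over all kept genes. They were still all below 0 after centring on that value and against the median of the other treated libraries. Some related lists also lay low there. Below the control were 11 of 11 enzymes around citrate and the TCA cycle and 14 of 19 kept genes listed as users of NADPH. The latter include Cyb5r3, which works mainly with NADH. The same was true of 11 of 11 targets of SREBP, the regulator of sterol and fatty acid synthesis. Some genes stand in more than 1 of these lists. Other lists leaned less. Below the control were 11 of 16 kept further enzymes of the pentose phosphate pathway and NADP metabolism and 9 of 15 other NRF2 targets. After centring, 9 of 16 and 7 of 15 were below 0. Nothing particular to the 9 genes is read from this 1 library. The oxidative branch summed to 314 TPM in the control and 362 TPM in oxidative stress, its highest value, and to 267 TPM in glutamine depletion, its lowest. Me1, Idh1 and Idh2 summed to 302 TPM in the control and to 213 TPM in ER stress, where the oxidative branch summed to 316 TPM. Under ER stress the sum was thus lower for the malic enzyme and isocitrate dehydrogenases and not for the oxidative branch. The largest part of the lower sum was Idh1, from 85.6 to 34.7 TPM, with Me1 from 104 to 81.9 and Idh2 from 113 to 96.5 TPM. Within the oxidative branch Pgls was lower (116 to 101 TPM), Pgd was higher (140 to 158 TPM) and G6pdx was level. The contrast of sums therefore restates mainly the change of Idh1.

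Differences between libraries of equal duration, taken without the control, were also small for most members. Oxidative minus osmotic stress ran from -0.39 for Idh2 to 0.71 for Nqo1. Glucose minus glutamine depletion ran from -0.13 for Idh1 to 0.50 for Nqo1, so that Nqo1 was at 113 TPM without glucose and 79.5 TPM without glutamine. Between glutamine depletion and hypoxia the 9 differences lay between -0.43 and 0.20.

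Other NRF2 targets give a measure of what the arsenite library held. Of 15 such genes outside the group, 8 rose in oxidative stress and none fell, with a median change of 1.22, against 0.06 for the 9 genes. Over all kept genes, 3.94% rose and 4.85% fell there. The 9 genes are not all named above as NRF2 targets. After centring the medians were 1.37 for this list and 0.21 for the 9 genes, with 14 of 15 and 8 of 9 above 0. The list was chosen with earlier results of these data known, so it is a description of this library. Hmox1, which breaks down haem, stood at 4.50, Srxn1, the sulfiredoxin that repairs peroxiredoxins, at 2.41, and Slc7a11, the cystine importer, at 2.22. Txnrd1, the cytosolic thioredoxin reductase and itself a user of NADPH, went from 205 to 634 TPM. Gclm and Gclc, the subunits of the first enzyme of glutathione synthesis, went from 75.7 to 228 TPM and from 21.8 to 60.0 TPM. Osgin1 and Gsta4 also rose, by 1.94 and 1.22. Of the 7 that did not pass, Gsr, the glutathione reductase, was at 0.19, Prdx1 at 0.01, Ftl1 at 0.12, Gstm1 at 0.35, Fth1 at 0.45, Abcc1 at 0.46 and Ephx1 at -0.30. Nqo1 at 0.42 and Pgd at 0.44 thus lay among the NRF2 targets that did not pass 2-fold at this dose and time.

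**Figure D3:**
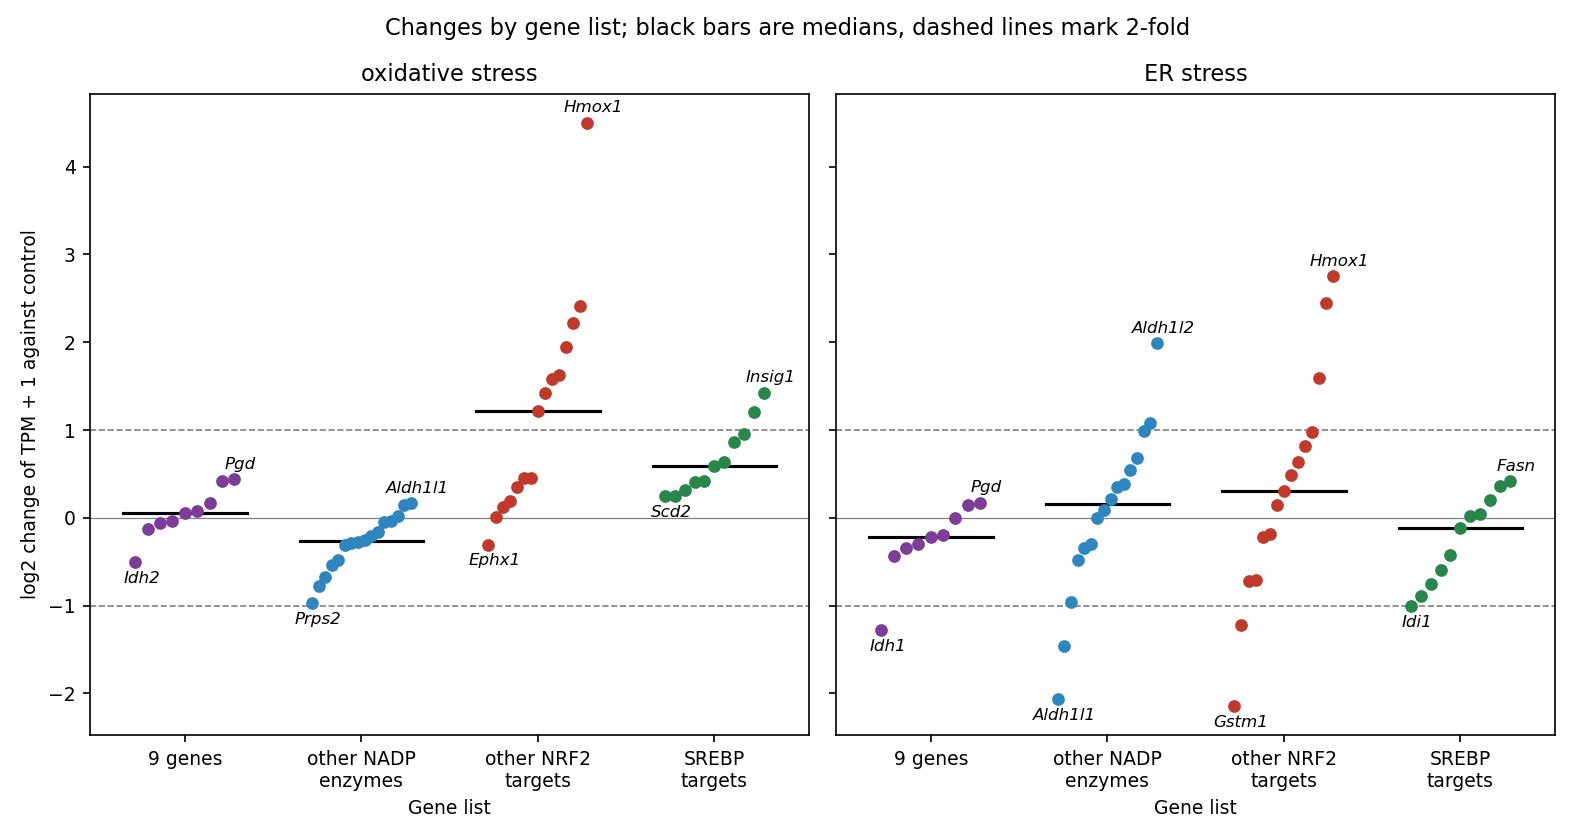
Difference of log2(TPM + 1) from the control in oxidative stress (left) and ER stress (right) for the kept genes of 4 lists (points, 1 gene each, with the highest and lowest named), with black bars at the list medians and dashed lines at 2-fold. The median was 1.22 for other NRF2 targets in oxidative stress, against 0.06 for the 9 genes, and in ER stress the other NADP enzymes ran from -2.07 to 1.99.

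In ER stress the same list did not move as one. Hmox1 rose from 266 to 1802 TPM, Slc7a11 from 2.60 to 18.5 TPM and Txnrd1 from 205 to 617 TPM, while Gstm1 fell from 40.9 to 8.49 TPM and Gsta4 from 28.7 to 11.7 TPM. Nqo1 was at -0.44 there. In glutamine depletion Txnrd1 (1.19) and Srxn1 (1.13) rose while Nqo1 was at -0.41. None of the 15 passed 2-fold in osmotic stress, glucose depletion or hypoxia.

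Further enzymes of the pathway and of NADP metabolism were taken as a list of 21 genes, of which 16 were kept. None of them passed 2-fold in oxidative stress or glutamine depletion. In ER stress 2 rose and 2 fell, a share near that of all kept genes, of which 8.60% rose and 11.0% fell. Aldh1l2 and Mthfd2, mitochondrial enzymes of folate metabolism, rose from 42.9 to 173 TPM and from 92.9 to 197 TPM. Aldh1l1, the cytosolic relative of Aldh1l2, fell from 6.92 to 0.890 TPM. H6pd, the glucose-6-phosphate dehydrogenase of the ER lumen and a relative of G6pdx, fell from 61.6 to 21.8 TPM.

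The contrast between H6pd and G6pdx resembled that between Idh1 and Idh2, in that 1 enzyme of each pair was far lower in ER stress. The likeness did not extend to oxidative stress, where H6pd was at -0.67 and Idh1 at -0.03. H6pd was at 61.6 TPM in control cells, 38.2 under oxidative stress, 49.5 under osmotic stress, 54.1 under glucose depletion, 43.0 under glutamine depletion, 21.8 under ER stress and 57.3 under hypoxia. G6pdx was at 57.4 TPM in ER stress and 57.6 in the control, so H6pd was the lower of the pair there while they were close in the control.

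**Figure D4:**
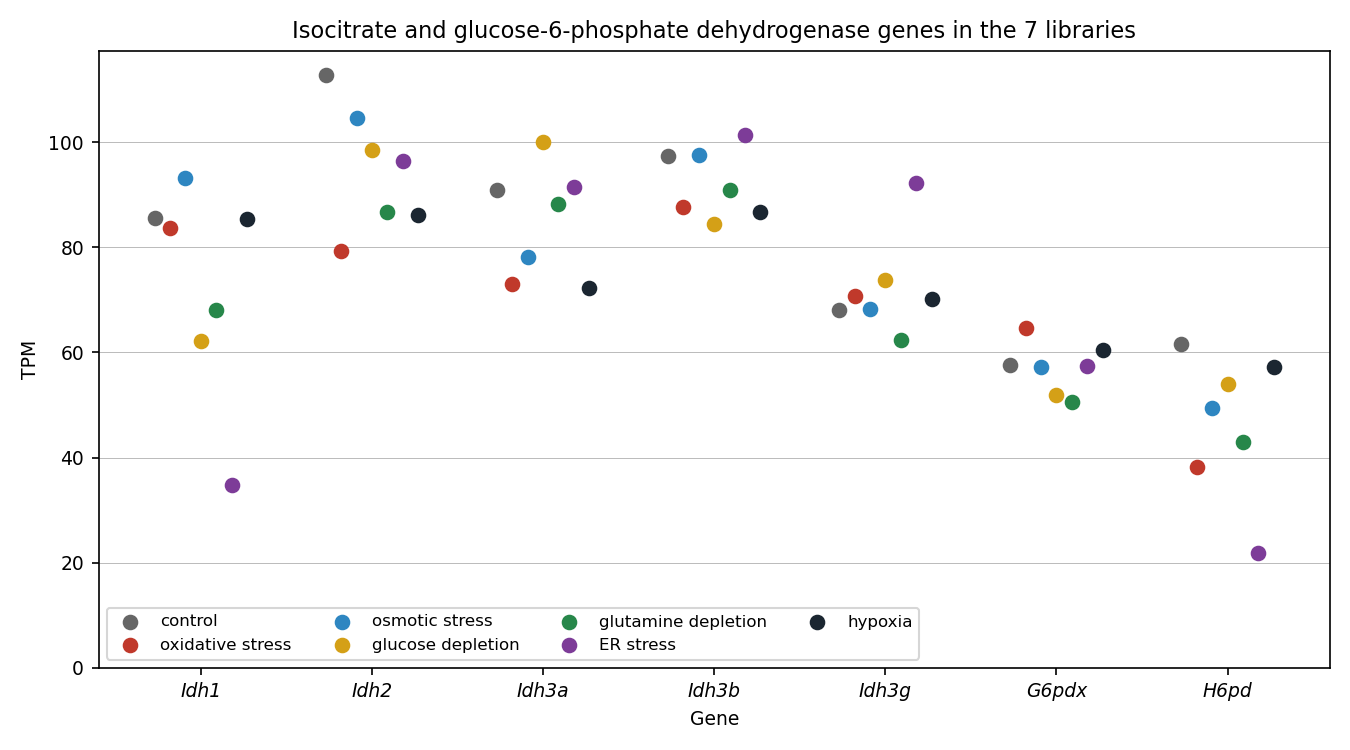
TPM (vertical axis, from 0) of isocitrate dehydrogenase genes and of the glucose-6-phosphate dehydrogenase genes G6pdx and H6pd, with 1 point per library coloured by condition. The ER stress points of Idh1 (34.7 TPM) and H6pd (21.8 TPM) lie far below their other points, while those of Idh2, Idh3a, Idh3b, Idh3g and G6pdx do not.

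Apart from H6pd, no kept relative of a member passed 2-fold in any condition, though Nqo2 in ER stress and Me2 in hypoxia came near it. G6pd2, Tktl1 and Tktl2 stayed below 1 TPM in every library. Me2, the mitochondrial malic enzyme that works mainly with NAD, was at 35.3 TPM in control cells and 62.6 under hypoxia, a change of 0.81, and Me3 lay between 3.63 and 6.58 TPM. In hypoxia Nadk2, the mitochondrial NAD kinase, rose from 8.99 to 24.4 TPM and Aldh1l2 from 42.9 to 88.1 TPM. These were 2 of the 16 kept genes of the list, against 3.57% of all kept genes that rose. In glucose depletion Aldh1l1 fell from 6.92 to 2.43 TPM and Nnt, the mitochondrial transhydrogenase, from 7.21 to 2.50 TPM. These were also 2 of 16, against 2.41% of all kept genes that fell, and both are genes of low expression. Counts this small, from 1 library each, are not read as a result about the list. Nnt was listed at 0 in osmotic stress, for which no fold is given. Nadk, the cytosolic NAD kinase that makes NADP, was between 99.1 and 145 TPM in all libraries.

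Genes with the most similar pattern were sought among the 8819 genes averaging 10 TPM or more, by the root mean square difference over the 6 changes, which share the control library. Closest to Idh1 were Fuca2 (0.11 log2 units), Serping1 (0.11) and Scarb1 (0.11), each of which fell in ER stress, by 1.32, 1.40 and 1.14. Closest to Nqo1 were Jam2 (0.16), Rusc2 (0.17) and 5031439G07Rik (0.18), none of which passed 2-fold in any condition. With a minimum of 2 TPM, all 3 neighbours of Idh1 were found again but only 1 of the 3 of Nqo1.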

How the data were processed

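Total RNA of MEFs was sequenced as paired-end, stranded mRNA libraries. The authors estimated TPM with kallisto 0.43.1 (version per the submitters' processing notes) at default settings against Ensembl cDNA of GRCm38, and the deposited TPM are summed over the transcripts of each gene. No counts were used, so depth is unknown and no counting interval is given.

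The deposited TPM were put on a log2(TPM + 1) scale, and each condition was set against the control. The study's methods use the same pseudocount, 1 TPM, and a 2-fold rule. Genes averaging 2 TPM or more were kept. Rows of 1 symbol were summed for the gene lists. All 9 members were named in every library, and list genes were named where they passed 2-fold or stood as relatives of a member, and genes of the treatment checks and markers as checks. Outside that rule, the NRF2 targets that did not pass, the Idh3 subunit genes, Nadk and the neighbours of Nqo1 were named after their values were seen, and Pikfyve for its position. Some list genes that passed are not reported here. The members and lists were chosen with earlier results of these data known. Samples were grouped by their treatment label, with no test between single libraries.

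Gene models came from GENCODE M21 (GRCm38), with 132 kept genes unmatched, and promoters from RefSeq (GRCm38.p6), which matched all 9 members. Shared stretches of 31 bases were counted in GENCODE M21 transcripts, which are not the authors' transcript set. The alternatives were pseudocounts of 0.1 and 5 TPM, centring on the median of kept genes, removal of mitochondrially encoded genes, the median of the other 5 treated libraries as reference, thresholds of 1.5-fold and 3-fold, other filters on low values (none, or a mean of at least 10 TPM) and protein-coding genes alone. On simulated data only the log2 changes and the 2-fold rule were tested, with genes raised well past that line. The tools were Python 3.11.15 with pandas 2.3.3, numpy 2.4.6 and, for plots, matplotlib 3.10.9.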

Additional observations from a re-analysis of the deposited data

How the results depend on the processing

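All 54 changes of the 9 genes kept their side of the 2-fold line under pseudocounts of 0.1 and 5 TPM, centring, removal of mitochondrially encoded genes and the median of the other 5 treated libraries as reference. The fall of Idh1 in ER stress ranged from -1.30 to -1.19. Direction was less stable for small changes. It turned for 0 of the 54 under either pseudocount, 2 with mitochondrially encoded genes removed, 8 with centring (the largest of them 0.124 in size) and 13 with the other reference (the largest 0.303). At a threshold of 3-fold, 0 of the 9 fell in ER stress in place of 1, and at 1.5-fold, 1 fell in hypoxia (Nqo1) in place of 0.

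The share of all genes past 2-fold, in either direction, depended on the filter and the pseudocount. It was 8.78% in oxidative stress and 3.88% without a filter, 11.8% and 4.96% in osmotic stress, 4.24% and 2.45% in glucose depletion, 6.41% and 2.95% in glutamine depletion, 19.6% and 7.20% in ER stress, and 6.21% and 3.10% in hypoxia. Among genes averaging 10 TPM or more, as all 9 members do, it was 5.47% for oxidative stress, 6.71% for osmotic stress, 1.79% for glucose depletion, 4.04% for glutamine depletion, 17.1% for ER stress and 3.48% for hypoxia. With a pseudocount of 5 TPM it was 4.49%, 5.17%, 2.61%, 3.35%, 11.8% and 3.88% in that order. Among protein-coding genes alone it was 5.25% for oxidative stress, 2.95% for hypoxia, 3.75% for glutamine depletion and 1.04% for glucose depletion. After centring, 4 SREBP targets in place of 2 rose in oxidative stress and 2 in place of 1 in osmotic stress, 2 NADPH users in place of 1 rose in osmotic stress, and none in place of 1 fell in hypoxia. No paired analysis was possible because each group has 1 library.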

Other observations

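A list of 21 genes was taken for enzymes that spend NADPH, though it includes Cyb5r3, which works mainly with NADH. Of these 21, 19 were kept, with Txnrd1 and Gsr also among the NRF2 targets and Fasn and Sqle among the SREBP targets. Between 1 and 3 of them passed 2-fold in each condition, against 4.24% to 19.6% of all kept genes, and these counts were near that background. In oxidative stress Txnrd1 rose. In osmotic stress Akr1b3, which reduces glucose to sorbitol with NADPH, rose from 90.5 to 575 TPM. Dhcr7, a reductase of late cholesterol synthesis, fell in ER stress from 27.3 to 10.8 TPM, and Tm7sf2 in glucose depletion from 12.0 to 5.27 TPM. Cbr3, a carbonyl reductase, fell in hypoxia from 22.0 to 10.3 TPM.

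Genes driven by SREBP, the regulator of sterol and fatty acid synthesis, lay on 1 side of the control in several conditions. All 11 were above the control in oxidative stress (median change 0.59) and in osmotic stress (0.41), before and after centring, and 11 of 11 were below it in glutamine depletion (-0.85) and 10 of 11 in glucose depletion (-0.54) and in hypoxia (-0.48, or 9 of 11 after centring). In ER stress 5 were above and 6 below (-0.12). Insig1, which holds the SREBP complex in the ER, was at 45.8 TPM in control cells, 125 under oxidative stress, 101 under osmotic stress, 24.2 under glucose depletion and 12.6 under glutamine depletion. Hmgcs1 fell in glutamine depletion from 98.5 to 29.2 TPM, and Idi1 rose in oxidative stress from 61.2 to 142 TPM. The 9 NADPH-related genes had medians of 0.06 in oxidative stress, -0.07 in osmotic stress and -0.15 in glucose depletion. Their medians were -0.32 in glutamine depletion, -0.24 in hypoxia and -0.22 in ER stress. The 11 enzymes around citrate and the TCA cycle held none past 2-fold in any condition, and in glutamine depletion 11 of 11 were below the control, with a median of -0.18, or 9 of 11 after centring.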
